A study of Mus musculus with 36 samples.

Results

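The 8 genes described here belong to the programme of 2-cell-like cells: Zscan4c, Zscan4d, Zscan4e and Zscan4f, Usp17la, Usp17lc and Usp17le, and Zfp352. They were taken from the count table by gene symbol, with no threshold on their values. These genes and the lists used below were, however, chosen with earlier results of these data known. Calls on them are therefore not independent tests. All 8 had a row in the table of 54842 genes, and all 8 passed the filter on low counts that left 18193 genes for testing. Over the libraries of wild-type cells alone, 4 of the 8 would have passed that filter, the 4 Zscan4 genes. The other 4 were tested because their counts were high enough in the other genotype.

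The 36 libraries hold RNA of mouse embryonic stem cells, which come from the inner cell mass of the blastocyst. Of these, 18 are from cells transfected with LiTEC, from a study that uses light-induced targeting for proteomics of endogenous condensates, and 18 from wild-type (WT) cells. All cultures, WT included, grew without serum, with leukaemia inhibitory factor and with MEK and GSK3β inhibitors, and all received doxycycline at 2 µg/ml for 2 days. Cultures of each genotype were either exposed to blue light for 30 min (lit) or not (dark), and RNA was taken 0, 1 or 4 h afterwards, which gives 12 groups of 3 libraries. The parts of LiTEC, how it was delivered, and whether its cells are a clone or a pool are not given in these sources. Replicate 1 of every group carries the label batch 1, and replicates 2 and 3 carry batch 2. Whether replicates were grown apart is not said in the labels, so a p-value here weighs a difference against library spread that may be technical.

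Cultures of mouse embryonic stem cells hold a small and changing share of cells that pass through a state resembling the blastomeres of the 2-cell embryo, when the zygotic genome is first transcribed on a large scale. The transcription factor Dux starts this programme, and the MERVL retroviral repeats and many genes, often in tandem families, follow it. Zscan4 genes encode proteins with a SCAN domain and zinc fingers that are known for their part in telomere maintenance in these cells. Usp17l genes encode ubiquitin-specific proteases, and Zfp352 encodes a zinc finger protein expressed in the 2-cell embryo. RNA of a whole culture does not tell whether fewer cells of this state or less RNA per cell sets a level.

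The sequences before the transcription start are shown for members of each of the 3 families. Each is the 250 bases that precede the RefSeq start on the coding strand in GRCm38.p6, 5′ to 3′, and capitals mark TATAAA, the core of a TATA box, where a search of the window found it. RefSeq entries were matched by symbol for 6 of the 8 genes, all but Zscan4e and Usp17le.
Zscan4c: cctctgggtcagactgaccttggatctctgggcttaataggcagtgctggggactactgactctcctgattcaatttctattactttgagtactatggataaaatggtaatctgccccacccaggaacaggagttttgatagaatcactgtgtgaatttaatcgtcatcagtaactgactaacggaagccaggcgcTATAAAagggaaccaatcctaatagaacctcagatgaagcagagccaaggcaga
Zscan4d: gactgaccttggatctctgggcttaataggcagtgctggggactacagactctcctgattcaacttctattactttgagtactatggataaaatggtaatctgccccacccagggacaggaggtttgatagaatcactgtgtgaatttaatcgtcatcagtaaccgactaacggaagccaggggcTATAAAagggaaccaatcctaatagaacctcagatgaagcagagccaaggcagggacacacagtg
Usp17la: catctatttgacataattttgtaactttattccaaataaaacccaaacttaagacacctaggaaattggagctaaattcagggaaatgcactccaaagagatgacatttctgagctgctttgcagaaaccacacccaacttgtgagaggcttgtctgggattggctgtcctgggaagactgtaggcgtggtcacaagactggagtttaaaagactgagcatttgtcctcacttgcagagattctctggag
Usp17lc: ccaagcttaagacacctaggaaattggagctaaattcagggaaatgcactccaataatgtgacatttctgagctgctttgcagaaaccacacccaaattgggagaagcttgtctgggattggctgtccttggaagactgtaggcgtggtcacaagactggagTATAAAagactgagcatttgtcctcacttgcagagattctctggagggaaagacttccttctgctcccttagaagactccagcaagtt
Zfp352: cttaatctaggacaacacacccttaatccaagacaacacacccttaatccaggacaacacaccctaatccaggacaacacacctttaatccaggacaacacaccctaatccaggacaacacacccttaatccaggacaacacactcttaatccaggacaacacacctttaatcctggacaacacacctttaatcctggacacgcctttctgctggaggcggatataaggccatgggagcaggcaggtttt
These windows are chr7:11005495-11005744 for Zscan4c (plus strand), chr7:11166149-11166398 for Zscan4d (minus strand), chr7:104856766-104857015 for Usp17la (plus strand), chr7:103416446-103416695 for Usp17lc (plus strand) and chr4:90218570-90218819 for Zfp352 (plus strand). The Usp17lc window lies inside an intron of the longer model of that gene in GENCODE M21. The Zscan4c and Zscan4d windows were 97.07% identical over 239 aligned bases, and Zscan4f, not printed, was 99.56% identical to Zscan4c over 227. Usp17la and Usp17lc were 95.19% identical over 208 aligned bases. Between families, the most bases aligned in all, gaps left out, were 89, between Usp17la and Zscan4f, and 69.66% of them were identical. TATAAA was found on either strand in 4 of the 6 windows: it began 54 bases before the start in Zscan4c, 65 in Zscan4d, 31 in Zscan4f and 88 in Usp17lc. Of 32851 windows of the same length, 12.4% held it. A match describes these letters and not a bound site.

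Annotation places 7 of the 8 genes on chromosome 7 of GRCm38 (GENCODE M21, 1-based). Zscan4c lies at 11005745 to 11010547 on the plus strand, Zscan4d at 11161374 to 11166159 on the minus strand, Zscan4e at 11306378 to 11310682 on the minus strand and Zscan4f at 11397915 to 11402318 on the plus strand. Usp17lc lies at 103415072 to 103419880 on the plus strand, Usp17le at 104768049 to 104777470 on the minus strand and Usp17la at 104857009 to 104862667 on the plus strand. Zfp352 lies on chromosome 4 at 90218820 to 90225702 on the plus strand. Exons of the Zscan4 genes are nearly the same sequence: of all stretches of 50 bases, 85.5% in Zscan4c, 49.6% in Zscan4d, 89.0% in Zscan4e and 86.8% in Zscan4f also occur in the transcripts of another gene, most of them other Zscan4 genes or pseudogenes. The shared part was 19.3% in Usp17la, 44.7% in Usp17lc, 29.8% in Usp17le and 7.10% in Zfp352. The counts of single Zscan4 genes are therefore uncertain, since how reads with several matches were treated is not given in these sources, and the 4 genes are also given as a sum. Usp17lc also contains the miRNA gene Gm25774 on its own strand.

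Library totals ran from 11132970 to 21842256 counts, with a median of 16663713. One ribosomal RNA locus, Gm26917, took 26.1% of the counts of replicate 3 of dark WT cells at 4 h, against 9.87% in the median library. Markers of embryonic stem cells were high throughout: the summed level of 10 such genes was 2814 to 4647 CPM (counts scaled to a common library size, with TMM factors) in every library, and Pou5f1, the pluripotency factor Oct4, had a median of 345 CPM in LiTEC and 385 CPM in WT. Nanog had medians of 395 and 444 CPM, Sox2 233 and 276 CPM, and Zfp42 537 and 433 CPM. Markers of fibroblasts or feeders, 10 genes, summed to 4.37 to 9.18 CPM in LiTEC and 6.99 to 13.3 CPM in WT. Markers of primitive endoderm, 8 genes, summed to 28.6 to 67.4 CPM in LiTEC and 22.2 to 44.0 CPM in WT, and 5 germ cell markers to 20.9 to 29.7 and 16.1 to 25.2 CPM. Of all these markers, only the fibroblast genes Dcn, in LiTEC, and Lum, in WT, were at 0 in every library of a genotype. The 8 trophectoderm markers summed to 58.5 to 114 CPM in LiTEC and 73.0 to 125 CPM in WT. The part of any of these in the results below was not tested.

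All 8 genes were higher in LiTEC than in WT cells, by 3.16 to 5.42 on the log2 scale without light and by 3.55 to 4.32 with it. The summed Zscan4 genes stood at 7.60 to 43.6 CPM in LiTEC cells depending on the replicate number, and at 0.536 to 3.85 CPM in WT cells. Light did not move any of the 8 past the test at 0, 1 or 4 h. A second difference ran through all conditions: in LiTEC cells replicate 3 was the highest and replicate 2 the lowest library of nearly every group.

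**Figure D1:**
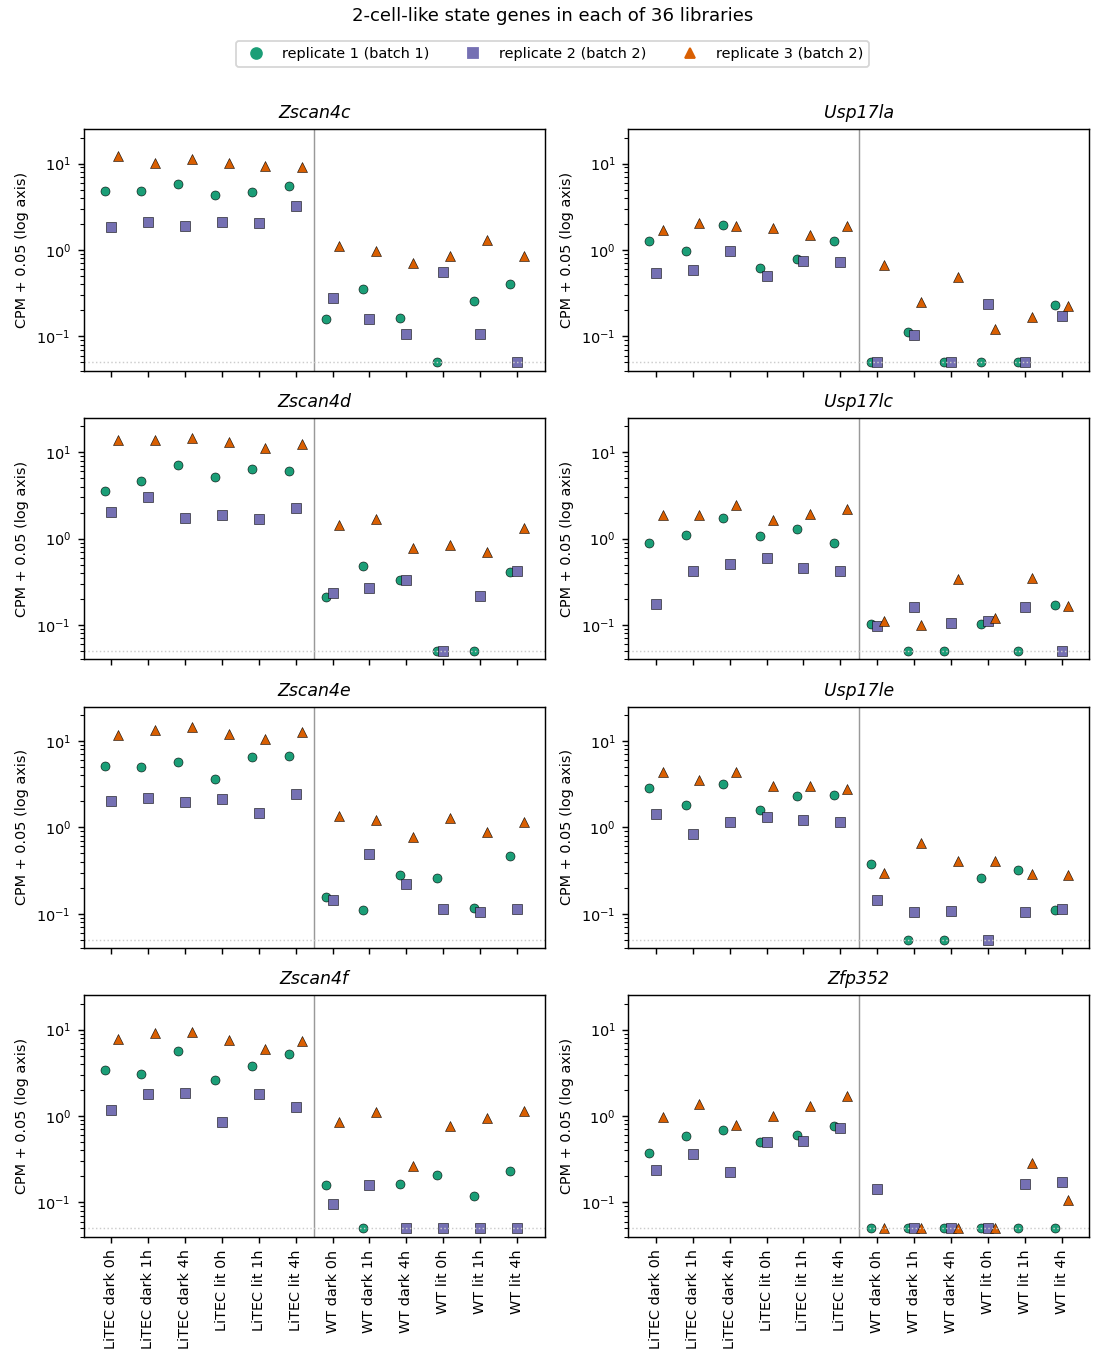
Level of each of the 8 genes in each of the 36 libraries, as CPM plus 0.05 on a log axis (points on the dotted line are libraries at 0 counts), with the 12 groups on the x axis and the replicate number as colour and shape. In each panel the LiTEC libraries on the left lie above the WT libraries of the same replicate number, and replicate 3 lies at the top of nearly every LiTEC group.

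In dark LiTEC cells the summed Zscan4 genes had 16.7, 6.88 and 45.2 CPM in replicates 1, 2 and 3 at 0 h, 17.3, 8.90 and 46.3 CPM at 1 h, and 23.8, 7.27 and 49.6 CPM at 4 h. Dark WT cells had 0.486, 0.555 and 4.56 CPM at 0 h, 0.793, 0.881 and 4.75 CPM at 1 h, and 0.742, 0.506 and 2.32 CPM at 4 h. The lowest of the 18 LiTEC libraries, lit and dark, held 6.75 CPM and the highest of the 18 WT libraries 4.75 CPM, so the genotypes did not overlap. Within a replicate number the gap was wider, since the highest WT libraries were those of replicate 3 and the lowest LiTEC libraries those of replicate 2. In counts, the 9 dark LiTEC libraries held 3419 against 271 in the 9 dark WT libraries, a ratio of 14.1 after scaling (95% interval from counting error alone, 12.4 to 16.0). The ratio was 29.3 (20.9 to 42.3) in replicate 1, 12.04 (8.59 to 17.3) in replicate 2 and 11.7 (10.1 to 13.6) in replicate 3. Whether the ratio in replicate 1 differs from the others beyond the spread between libraries was not tested, and the test for replicates 2 and 3 is given with the replicate numbers.

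Each Zscan4 gene was called higher in LiTEC (edgeR's quasi-likelihood test, Benjamini-Hochberg adjusted p below 0.05 over all tested genes). Zscan4d had 3.55, 1.98 and 13.9 CPM in dark LiTEC replicates 1, 2 and 3 at 0 h, 4.57, 2.97 and 13.8 at 1 h, and 6.97, 1.69 and 14.5 at 4 h. In dark WT cells it had 0.162, 0.185 and 1.37 CPM at 0 h, 0.427, 0.220 and 1.62 at 1 h, and 0.285, 0.281 and 0.724 at 4 h. The lowest LiTEC library for Zscan4d, at 1.63 CPM, came from replicate 2 and the highest WT library, at 1.62 CPM, from replicate 3, so the genotypes all but touched there. Its log2 fold change in the dark was 3.65 ± 0.56 (SE, adjusted p = 1.73e-06). Zscan4c, with a median of 4.72 CPM in the 9 dark LiTEC libraries (1.80 to 12.1) and 0.231 CPM in dark WT (0.0562 to 1.06), differed by 4.02 ± 0.54 (adjusted p = 1.85e-07). Zscan4e ran from 1.92 to 14.5 CPM around a median of 5.04 in dark LiTEC and from 0.0610 to 1.31 CPM in dark WT. Zscan4f, the least abundant of the 4, ran from 1.12 to 9.27 CPM around a median of 3.36 in dark LiTEC and from 0 to 1.06 CPM in dark WT. Their log2 fold changes were 3.88 ± 0.58 and 4.30 ± 0.64 (adjusted p = 1.17e-06 and 1.05e-06). With light, the differences between the genotypes were 3.70 ± 0.53 for Zscan4c, 4.25 ± 0.62 for Zscan4d, 3.90 ± 0.59 for Zscan4e and 3.58 ± 0.61 for Zscan4f on the log2 scale, all 4 called (adjusted p = 6.57e-07 to 9.62e-06).

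The 3 Usp17l genes, which encode deubiquitinating enzymes of 1 tandem family, were lower in abundance and were also called higher in LiTEC. Usp17le had 2.78, 1.36 and 4.29 CPM in dark LiTEC replicates 1, 2 and 3 at 0 h, 1.75, 0.795 and 3.50 at 1 h, and 3.14, 1.10 and 4.30 at 4 h. In dark WT cells it had 0.324, 0.0926 and 0.250 CPM at 0 h, 0, 0.0551 and 0.607 at 1 h, and 0, 0.0562 and 0.362 at 4 h. No WT library of either light condition reached the lowest LiTEC library of Usp17le, and its log2 fold change was 3.71 ± 0.45 in the dark and 3.62 ± 0.48 with light (adjusted p = 2.27e-08 and 1.33e-07). Usp17la held 181 counts over the 9 dark LiTEC libraries and 22 over the 9 dark WT libraries, 10 of them in replicate 3 at 0 h, with log2 fold changes of 3.16 ± 0.50 in the dark and 3.55 ± 0.57 with light. Usp17lc held 163 and 11 counts in the dark, with log2 fold changes of 3.94 ± 0.59 and 3.57 ± 0.57. Both were called in both light conditions. All 3 Usp17l genes were tested only through their LiTEC counts, so their calls are no support. How many of all tested genes separate as Usp17le does was not counted. Usp17la and Usp17lc overlapped between the genotypes when all replicate numbers were pooled, in 1 and 2 WT libraries that reached the lowest LiTEC library.

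Zfp352 was the rarest of the 8 and had the largest log2 fold change of them in the dark. It was tested only through its LiTEC counts, so its calls are no support. Its counts in dark LiTEC replicates 1, 2 and 3 were 5, 3 and 14 at 0 h, 7, 6 and 22 at 1 h, and 11, 3 and 10 at 4 h. Dark WT cells held 2 counts in all, both in replicate 2 at 0 h, and the other 8 libraries held 0. That is 81 against 2 counts, a ratio of 45.1 with a counting interval of 12.1 to 379. The fitted log2 fold change of 5.42 ± 0.75 (adjusted p = 9.21e-07) depends on how the fit treats these near-empty libraries. With light, LiTEC held 125 counts and WT 9, a ratio of 13.5 (6.91 to 30.3) and a log2 fold change of 4.32 ± 0.60 (adjusted p = 1.10e-06). The 9 WT counts came from replicates 2 and 3 at 1 and 4 h. In replicates 1 and 3 of dark WT cells no count was seen in 3 libraries each, so LiTEC was at least 8.78-fold and 16.8-fold higher there, taken against 3 counts over the 3 libraries.

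In both light conditions 8 of 8 genes were called higher, against 47.6% of all tested genes called in either direction in the dark and 43.4% with light, and 23.9% and 22.2% called higher in LiTEC. The genotypes differed in many genes, so a call alone says little. Moreover, Usp17la, Usp17lc, Usp17le and Zfp352 reached the test only through their LiTEC counts and so had to differ, and the count of 8 is no support on their account. Of the 4 Zscan4 genes, which pass the filter over WT alone, 4 of 4 were called higher in both light conditions, with median log2 fold changes of 3.95 and 3.803. The median log2 fold change of the 8 was 3.91 in the dark and 3.66 with light, beside 0.0037 and -0.0031 for all tested genes. In the dark 97 of 18193 genes had a larger log2 fold change than the lowest of the 8, Usp17la, and with light 67. Usp17la was tested only through its LiTEC counts, so its rank is no support. The median of the 8 also includes such genes. Of the Zscan4 genes the lowest in the dark was Zscan4d, with 72 genes above it, and with light Zscan4f, with 63. LiTEC was above WT in 18 of 18 pairs of libraries with the same light, time and replicate number for each of the 8 genes. Over all 36 libraries the genotypes did not overlap for Zscan4c, Zscan4d, Zscan4e and Usp17le. They overlapped for Zscan4f, Usp17la, Usp17lc and Zfp352, and for none of the 8 within a replicate number. How many of all tested genes separate like this, in pairs or over all libraries, was not counted. These counts therefore describe the 8 genes only. Without the library rich in Gm26917, 8 of 8 were called in the dark, with Usp17la at 4.53 instead of 3.16 on the log2 scale and Usp17le at 4.34 instead of 3.71.

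**Figure D2:**
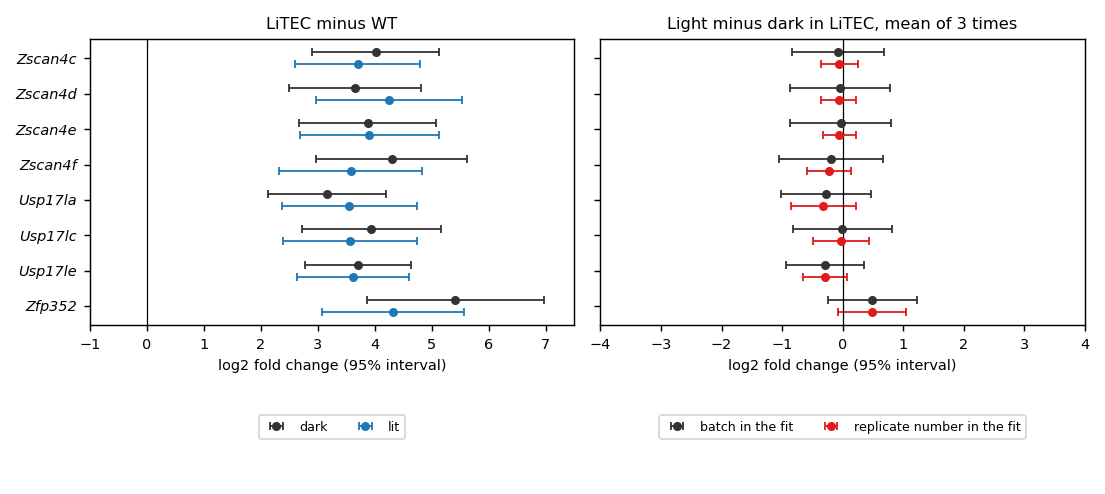
Log2 fold change of each of the 8 genes with its 95% interval from edgeR's quasi-likelihood fit over 36 libraries, on the left LiTEC minus WT without light (black) and with light (blue), on the right light minus dark in LiTEC averaged over 3 times with batch (black) or replicate number (red) in the fit. The genotype differences lie between 3.16 and 5.42, and the intervals of the light effects all include 0.

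Light was applied to ask how LiTEC with and without blue light acts on transcription. Directly after the light, the summed Zscan4 genes in LiTEC had 15.5, 6.78 and 42.5 CPM in replicates 1, 2 and 3, beside 16.7, 6.88 and 45.2 CPM in the dark. At 1 h after it they had 21.1, 6.75 and 36.7 CPM, beside 17.3, 8.90 and 46.3 CPM in the dark. At 4 h they had 23.4, 9.03 and 41.4 CPM, beside 23.8, 7.27 and 49.6 CPM. Lit and dark libraries of the same replicate number were close, and the lit and dark groups overlapped at each time.

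In LiTEC cells 0 of the 8 genes were called for light at 0, 1 or 4 h, against 0.934%, 0.115% and 0.011% of all tested genes. None of the 8 had an unadjusted p below 0.05 there, and DESeq2 called 0 as well. With the replicate number in place of batch 0 were called too, and 1 of the 8, Zfp352 at 4 h, had an unadjusted p below 0.05. The log2 fold changes of light ranged from -0.52 (Usp17le) to 0.42 (Zfp352) at 0 h, from -0.24 to 0.15 at 1 h, and from -0.45 (Usp17le) to 0.97 (Zfp352) at 4 h. Zfp352 at 4 h had 12, 11 and 32 counts with light and 11, 3 and 10 without (adjusted p = 0.847). Averaged over the 3 times, a comparison chosen after seeing the data, 0 of 8 were called against 1.87% of tested genes. The 95% interval of that average ran from -0.84 to 0.68 for Zscan4c and from -0.93 to 0.35 for Usp17le. With the replicate number in place of batch it narrowed to -0.36 to 0.25 for Zscan4c, -0.35 to 0.22 for Zscan4d, -0.33 to 0.22 for Zscan4e and -0.58 to 0.13 for Zscan4f. For Zfp352 it was -0.08 to 1.05.

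In WT cells 0 of 8 were called for light at 0, 1 or 4 h, where 2.86%, 0.286% and 0% of tested genes were, and DESeq2 also called 0. The summed Zscan4 genes in lit WT cells had 0.370, 0.561 and 3.52 CPM at 0 h, 0.339, 0.280 and 3.65 CPM at 1 h, and 1.31, 0.435 and 4.28 CPM at 4 h. These counts are small, and the intervals are wide: the light effect on Zscan4c in WT at 0 h was -0.12 on the log2 scale with a 95% interval of -2.97 to 2.73, or -1.36 to 1.10 with the replicate number in the fit. With batch in the fit Zfp352 at 1 h was the only gene of the 8 with an unadjusted p below 0.05 (adjusted p = 0.629), with 0, 2 and 4 counts in lit and 0 in all 3 dark libraries. With the replicate number in the fit 0 were called, and Zfp352 and Zscan4d at 1 h and Zscan4f at 4 h had an unadjusted p below 0.05. The light effect did not differ between LiTEC and WT past the test for any of the 8 at 0, 1 or 4 h (0 called at each time, against 0.022%, 0% and 0% of tested genes), where with batch in the fit only Zfp352 at 1 h had an unadjusted p below 0.05, and with the replicate number in the fit Zfp352 at 1 h and Zscan4f at 4 h. Averaged over both genotypes and all times, 0 of 8 were called for light against 6.14% of tested genes, with 0 at an unadjusted p below 0.05 and 0 called by DESeq2. With batch in the fit, the log2 differences of the 8 in that average ran from -0.47 to 1.04 (lowest adjusted p = 0.652, quasi-likelihood test). With a block of the replicate number per genotype 0 were called, and 1 of the 8 had an unadjusted p below 0.05. At single times, with batch in the fit, the 95% intervals of the 8 genes reached from -1.72 (Zscan4f at 1 h) to 2.20 (Zfp352 at 4 h) in LiTEC and from -6.82 to 7.92 (Zfp352 at 0 and 1 h) in WT. With the replicate number in the fit they reached from -1.32 (Usp17la at 0 h) to 1.89 (Zfp352 at 4 h) in LiTEC and from -6.01 to 7.15 (Zfp352 at 0 and 1 h) in WT.

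Time alone did not move the 8 past the test either. In the dark, 4 h against 0 h called 0 of 8, with 15.5% of all tested genes called. None of the 8 had an unadjusted p below 0.05, and DESeq2 called 0. The batch label called 0 of 8, with 40.5% of all tested genes called and log2 differences of 0.07 to 0.63 between batch 2 and batch 1. Batch 2, however, joins the replicate with the highest levels to the one with the lowest.

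Across the 6 LiTEC groups the summed Zscan4 genes averaged 19.6 ± 3.61 CPM (SD, n = 6) in replicate 1, 7.60 ± 1.07 CPM in replicate 2 and 43.6 ± 4.46 CPM in replicate 3. The ranges of the 3 replicate numbers did not overlap: 15.5 to 23.8, 6.75 to 9.03 and 36.7 to 49.6 CPM. In WT cells the means were 0.674 ± 0.365, 0.536 ± 0.198 and 3.85 ± 0.894 CPM, with replicate 3 above the others in 6 of 6 groups. The summed Usp17l genes in LiTEC averaged 4.50 ± 1.25, 2.14 ± 0.277 and 7.14 ± 0.903 CPM in replicates 1, 2 and 3. Zfp352 in LiTEC averaged 0.536 ± 0.141, 0.379 ± 0.192 and 1.15 ± 0.340 CPM. In LiTEC replicate 3 was the highest of its group in 6 of 6 groups for 7 genes and in 5 of 6 for Usp17la, and replicate 2 was the lowest in 6 of 6 groups for 7 genes and in 5 of 6 for Zfp352.

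The replicate numbers were compared in a fit chosen after seeing the data, with the replicate number in place of batch. Replicate 3 was higher than replicate 2 for 8 of 8 genes, where 27.7% of all tested genes were called in either direction. The log2 differences ran from 1.40 ± 0.31 (Zfp352) to 2.69 ± 0.16 (Zscan4e), with a median of 2.24. Fitted for LiTEC alone, 8 of 8 were higher in replicate 3 (14.2% of tested genes called), by 1.49 (Usp17la) to 2.66 (Zscan4d). For WT alone, 6 of 8 were higher (23.8% of tested genes called), while Usp17lc differed by 1.05 ± 0.61 and Zfp352, with 6 and 5 counts in all in replicates 2 and 3, by -0.18 ± 0.74. The difference between replicates 3 and 2 was itself not called different between LiTEC and WT for any of the 8 (0 called, against 1.76% of tested genes), and 1 of the 8, Zscan4f, had an unadjusted p below 0.05 (adjusted p = 0.100). Within a replicate number the summed Zscan4 genes lay close together in LiTEC libraries. Relative to their level they spread more in WT, from 0.339 to 1.31 CPM in replicate 1, on few counts. The biological coefficient of variation of the 8 genes in edgeR was 0.442 to 0.869 with batch in the fit, above that of 95.6% to 99.9% of tested genes of like abundance, and 0.108 to 0.230 with the replicate number in the fit.

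The summed markers were set beside the replicate numbers. The 9 other markers of 2-cell-like cells had medians of 5.22, 1.68 and 9.34 CPM in replicates 1, 2 and 3, with both genotypes together, the same order as the 8 genes. Most of that sum in LiTEC was Zscan4a and Zscan4b, with means of 6.43 and 2.67 CPM. Both share sequence with the Zscan4 genes among the 8, so this order is not independent of them. Germ cell markers had medians of 23.8, 23.4 and 24.1 CPM, with overlapping ranges (17.3 to 29.0, 19.3 to 29.7 and 16.1 to 29.3 CPM). Embryonic stem cell markers summed to 2814 to 3452 CPM in replicate 1, 3745 to 4478 CPM in replicate 2 and 3911 to 4647 CPM in replicate 3. Primitive endoderm markers summed to 34.8 to 67.4, 22.2 to 42.8 and 27.0 to 33.7 CPM, fibroblast markers to 6.65 to 11.9, 5.16 to 13.3 and 4.37 to 9.12 CPM, and trophectoderm markers to 58.5 to 98.0, 91.0 to 125 and 83.9 to 106 CPM in the same order. Library totals overlapped too, at 13272314 to 20102278, 11132970 to 18376797 and 12969811 to 18851766 counts in LiTEC replicates 1, 2 and 3. The part of these in the difference between replicates was not tested.

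**Figure D3:**
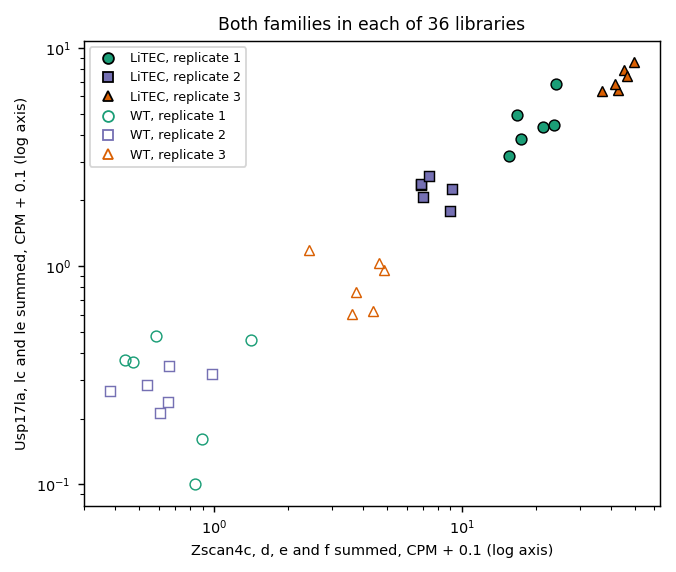
Summed Usp17l genes against summed Zscan4 genes in each of the 36 libraries, as CPM plus 0.1 on log axes, with filled symbols for LiTEC, open symbols for WT and the shape for the replicate number. The LiTEC libraries fall into clusters by replicate number, WT libraries of replicates 1 and 2 overlap, and the 6 LiTEC libraries of replicate 3 lie at the upper right.

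The families were then compared across libraries, which share no reads between families. After the mean of each group and the batch were taken off, log2 levels (CPM plus 0.5) of the summed Zscan4 and the summed Usp17l genes were related with Pearson's r = 0.906 and Spearman's rho = 0.898 over 36 libraries (permutation p = 1e-05 for both, the smallest that 100000 permutations can give, adjusted p = 1.5e-05 and 3e-05 over 3 pairs). Zscan4 and Zfp352 gave r = 0.640 and rho = 0.505 (permutation p = 3e-05 and 0.002), and Usp17l and Zfp352 gave r = 0.718 and rho = 0.571 (permutation p = 1e-05 and 0.00036). Without the 2 libraries farthest from the median of the first family, r was 0.891, 0.575 and 0.648. These values rest on the clusters by replicate number. The permutations here and below treated libraries as independent, although same-numbered libraries deviated together. Their p-values therefore overstate the evidence and describe these libraries only. By genotype, over the 18 WT libraries alone Zscan4 and Usp17l gave r = 0.799, Zscan4 and Zfp352 -0.133, and Usp17l and Zfp352 -0.318 (permutation p = 0.00013, 0.598 and 0.198), and over the 18 LiTEC libraries 0.980, 0.907 and 0.949 (permutation p = 1e-05 for each). Over the 24 libraries of batch 2 alone Zscan4 and Usp17l gave r = 0.932, Zscan4 and Zfp352 0.690, and Usp17l and Zfp352 0.785. Over the 12 libraries of batch 1 they gave 0.540, -0.0869 and -0.0999 (permutation p = 0.0693, 0.794 and 0.758). With the mean of each replicate number also taken off, r was 0.447 for Zscan4 and Usp17l (permutation p = 0.00645, adjusted p = 0.00981), 0.178 for Zscan4 and Zfp352 (p = 0.296 by permutation) and 0.446 for Usp17l and Zfp352 (permutation p = 0.00654, adjusted p = 0.00981). The same deviations over the 18 LiTEC libraries gave r = 0.725 for Zscan4 and Usp17l and 0.707 for Usp17l and Zfp352 (permutation p = 0.00061 and 0.00109). Over the 18 WT libraries r was 0.265 and 0.237 (permutation p = 0.285 and 0.34). The replicate means were taken over both genotypes together. Replicate differences particular to a genotype therefore remain in these r and in those over 36 libraries. Whether the families vary together beyond the replicate number was not tested.

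The make-up of the Zscan4 family was alike in both genotypes, although its level differed by 14.1-fold in the dark. In LiTEC, 6980 counts on the 4 genes fell to Zscan4d with 29.1% (95% exact binomial interval 28.0% to 30.2%), Zscan4e with 27.9%, Zscan4c with 24.5% and Zscan4f with 18.6%. In WT, 510 counts fell to the same genes with 29.6% (25.7% to 33.8%), 27.3%, 24.5% and 18.6%. Of the Usp17l counts, Usp17le took 49.6% of 1354 in LiTEC and 47.4% of 116 in WT (38.1% to 56.9%). These shares pass through the counting of near-identical reads, and the intervals cover counting error only.

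Per kilobase of exon, Zscan4e was the most abundant in LiTEC at 3.67 ± 2.54 CPM per kb (SD, n = 18), followed by Zscan4d at 3.02 ± 2.14, Zscan4c at 2.55 ± 1.57 and Zscan4f at 2.23 ± 1.47. Usp17le had 1.15 ± 0.555 CPM per kb, Usp17lc 0.466 ± 0.284, Usp17la 0.437 ± 0.210 and Zfp352 0.302 ± 0.179. The spread is that between replicate numbers, so neighbours were compared within libraries. Zscan4e was above Zscan4d in 16 of 18 LiTEC libraries, Zscan4f above Usp17le in 16 and Usp17le above Usp17lc in 18. Zscan4d was above Zscan4c in 12, Zscan4c above Zscan4f in 13 and Usp17la above Zfp352 in 14. Usp17lc was above Usp17la in 8 of 18, so these neighbours had no steady order. In WT the same order held by mean except for Usp17la (0.0467 CPM per kb) and Usp17lc (0.0340 CPM per kb). These levels divide by the whole exon length, although the part shared with other genes differs between them. Before that division Zscan4d, with 2032 counts in LiTEC, was above Zscan4e, with 1944. The order within a family is therefore uncertain.

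Other genes of the 2-cell-like programme were read from a list of 50 targets and markers. Of these 22 were tested, and 18 were called higher and 1 lower in LiTEC in the dark, with a median log2 fold change of 3.27. With light 17 were called higher and 1 lower, with a median of 3.13. Of all tested genes, 23.9% and 22.2% were called higher in the same comparisons. Of the 22, 8 would have passed the filter over WT libraries alone, and of those 4 were called higher and 1 lower in both light conditions, with medians of 1.22 and 1.56. The others were tested only through their LiTEC counts, so their calls are no support. Those with the smallest p were mostly relatives of the Zscan4 genes: Zscan4a had a mean of 7.06 CPM in dark LiTEC and 0.607 CPM in dark WT, a log2 fold change of 3.56 ± 0.55. Zscan4b differed by 3.97 ± 0.58, and the pseudogenes Zscan4-ps1, Zscan4-ps2 and Zscan4-ps3 by 3.81 ± 0.55, 3.71 ± 0.54 and 3.94 ± 0.60, all sharing sequence with the 4 members. Gm21761 differed by 4.09 ± 0.64 in the dark, and Tmem92, which encodes a transmembrane protein, by 3.71 ± 0.63 with light (all 7 with adjusted p below 0.05 in edgeR's quasi-likelihood test). Of these 7 only Zscan4a and Zscan4-ps3 would have passed the filter over WT libraries alone. The gene called lower was Zfp750, named after its value was seen, at -0.34 ± 0.12. Light called 0 of the 22 in LiTEC at 0, 1 or 4 h, beside 0.934%, 0.115% and 0.011% of all tested genes.

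**Figure D4:**
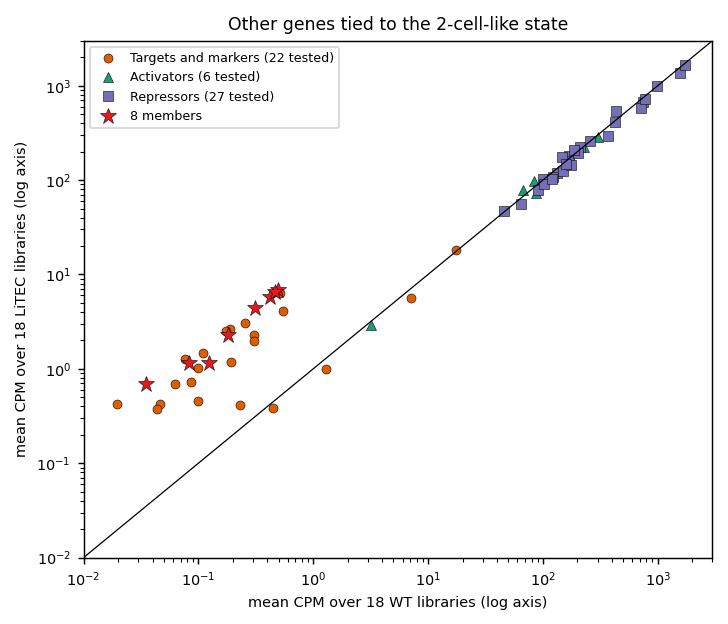
Mean CPM over 18 LiTEC libraries against mean CPM over 18 WT libraries on log axes, for the tested targets and markers (22), activators (6) and repressors (27) of the 2-cell-like programme and the 8 members (stars), with the line of equal level. The 8 members and most targets lie above the line, and the activators and repressors lie on or near it.

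Duxf3, the gene of the factor Dux that starts the programme, was too rare to be tested. It had 43 counts over the 18 LiTEC libraries and 4 over the 18 WT libraries. In LiTEC 20 of its counts were in replicate 1, 3 in replicate 2 and 20 in replicate 3, and 14 of the 18 WT libraries and 6 of the 18 LiTEC libraries held 0.

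Known activators of the programme and repressors of it moved little. Of 6 activators 2 were called higher in LiTEC in both light conditions, Dppa2 and Dppa4, which bind chromatin upstream of Dux, at log2 fold changes of 0.22 ± 0.06 and 0.20 ± 0.03 in the dark. One was called lower, Nelfa, a subunit of the negative elongation factor of RNA polymerase II, at -0.32 ± 0.06. Of 27 repressors 5 were called higher and 16 lower in the dark, with a median log2 fold change of -0.10, and 5 and 13 with light, with a median of -0.08. These counts stand beside 47.6% and 43.4% of all tested genes. Those with the smallest p were Zfp42 (Rex1) at 0.30 ± 0.03, Uhrf1, which guides maintenance DNA methylation, at -0.29 ± 0.04, the histone deacetylase Hdac2 at -0.33 ± 0.04, the Polycomb ubiquitin ligase Rnf2 at -0.27 ± 0.04, Smchd1, a chromatin protein of the inactive X chromosome, at 0.27 ± 0.04, and Max, the partner of Myc and Mga, at -0.21 ± 0.03. Of these 6, Zfp42 and Smchd1 were higher in LiTEC and the other 4 lower, with log2 fold changes between -0.33 and 0.30, where the lowest of the 8 genes had 3.16.

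The genes outside the 8 whose deviations from group and batch means were most like those of the summed Zscan4 genes over 36 libraries were, in this order, Gm5662 (r = 0.956), Vwa3b, Glul, Gm21939, Eaf1, Bop1, Trh, Pop1, Zscan4a and Dusp27 (r = 0.927). Only Gm5662 and Zscan4a of these are on the list of targets and markers. Several of the others are abundant, and some are lower in LiTEC than in WT: Trh, the precursor of thyrotropin-releasing hormone, had a mean of 144 CPM in LiTEC and 282 CPM in WT, and Glul, glutamine synthetase, 178 and 239 CPM. With the replicate number taken off as well, r fell to 0.275 for Trh and -0.08 for Pop1, and was 0.681 for Gm5662, 0.721 for Vwa3b and 0.725 for Zscan4a. Of the 22 tested targets and markers 20 had r above 0.5 with batch taken off, beside 12.6% of other tested genes, and 11 had it with the replicate number taken off, beside 2.96%. Both counts include Zscan4a, Zscan4b, Zscan4-ps1, Zscan4-ps2 and Zscan4-ps3, which share sequence with the summed genes. Their reads may be partly the same, so these are not independent of that sum. These r are descriptions over libraries that share their replicate number, which was taken off over both genotypes together.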

How the data were processed

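Values are the authors' deposited gene counts, whole and unscaled. FastQC, featureCounts and mm10 (GRCm38) are named in the submitters' processing notes, and per the labels' protocols libraries came from TRIzol RNA and a stranded mRNA kit. The aligner, the strand setting, the handling of reads with several matches and tool versions are not given in these sources.

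Genes were kept with filterByExpr (minimum count 10) and scaled by TMM. One fit to all 36 libraries held 12 group means and a batch term (23 residual degrees of freedom) by the quasi-likelihood functions of edgeR 4.0.16 in R 4.3.3. Benjamini-Hochberg adjustment covered the 18193 tested genes, and called means an adjusted p below 0.05. An SE is the log2 fold change divided by the square root of F. The fit was also run on simulated counts, drawn independently for each library and with no effect of the replicate number. That run cannot show how the fit behaves where same-numbered libraries deviate together. Correlations used 100000 permutations and a pseudocount of 0.5 CPM.

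The 8 genes and all lists were chosen with earlier results of these data known. Named beside the 8 are Duxf3, up to 6 called list genes with the smallest p in each comparison, the 10 genes most like the summed Zscan4 genes, up to 6 activators and repressors with the smallest p, and Pou5f1, Nanog, Sox2 and Zfp42; Dppa2, Dppa4 and Nelfa are named because they were the activators called. Same-numbered libraries of a genotype deviated together in 45 of 45 pairs in LiTEC and 45 of 45 in WT (correlation over 0.1), and between genotypes in 107 of 108, with a lowest correlation of 0.0977. Alternatives were the replicate number as a block, no batch term, RLE size factors, batch 2 alone, no filter, DESeq2 1.42.0, a mean of at least 1 CPM, the compared groups only, other pseudocounts and leaving out each library; a block per genotype, the averages over times in LiTEC and the comparisons between replicate numbers were chosen after seeing the data.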

Additional observations from a re-analysis of the deposited data

How the results depend on the processing

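The 8 genes remained called higher in LiTEC, with and without light, under every alternative that tested them, and counts of 0 called for light, for time and for the difference of light effects stayed at 0 under all alternatives run. With a mean of at least 1 CPM required, 5 of the 8 entered the test, and 5 were called in the dark and 5 with light. With no expression filter 4 of the 8 were called between batches, where 0 were with it. With the replicate number as a block in place of batch, the genotype calls held for 8 of 8 (Zscan4c 3.97 ± 0.22 in the dark) and no other call changed, except that the relation of Zscan4 and Zfp352 gave r = 0.178 and was lost. The numbers are those of the labels, and each of the 36 libraries correlated best with its own number, which is a hint from the data. Leaving out 1 library gave 8 of 8 called in each case, and where it moved a fold by over 1.5 times it was a WT library left out and the difference grew: Zscan4d with light to 5.87 (without WT lit 0 h replicate 3), Zscan4f with light to 4.59, Zscan4e to 4.63, Zscan4c to 4.34 and Usp17la to 4.43 (WT lit 1 h replicate 3), Zscan4f with light to 4.26 (WT lit 4 h replicate 3), Zfp352 in the dark to 6.20 (WT dark 0 h replicate 2), Usp17la to 4.70, Zscan4f to 4.89 and Zscan4e to 4.55 (WT dark 0 h replicate 3), Zscan4f to 5.17 and Usp17le to 4.62 (WT dark 1 h replicate 3), and Usp17la to 4.53 and Usp17le to 4.34 (WT dark 4 h replicate 3). A block per genotype gave 4.99 and 4.31 for Zscan4f. The cause was not tested. WT levels rest on few counts, 2 to 92 per gene over 9 dark libraries, which limits how well the size of a fold is known.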
